A study of Mus musculus with 4 samples.

Results

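The genes described here were 5 α-arrestins (Txnip, Arrdc1, Arrdc2, Arrdc3 and Arrdc4) and the glucose-sensing transcription factor genes Mlx, Mlxip and Mlxipl. They made 8 of the 55487 genes in the count table, were chosen by name with the FK866 comparison already known, and all 8 passed the filter on low counts. The cells were colonic group 2 innate lymphoid cells (ILC2s) of the mouse, tissue-resident lymphocytes that secrete type 2 cytokines, and they were sorted before culture. The medium of every culture contained IL-2 and IL-7, which keep ILC2s alive, together with the alarmin IL-33 and with IL-25. One group of 2 libraries was exposed for 16 h to FK866, an inhibitor of the NAD+ salvage enzyme NAMPT, and the other 2 libraries were labelled as controls. The mouse strain, age and sex, the dose of FK866 and any vehicle given to the controls are not stated in the sources used here.

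α-Arrestins are cytosolic adaptors that bring ubiquitin ligases of the NEDD4 family to membrane proteins. TXNIP and ARRDC4 lower glucose uptake, and TXNIP also binds thioredoxin. MondoA, encoded by Mlxip, and ChREBP, encoded by Mlxipl, each pair with MLX, enter the nucleus when glucose 6-phosphate is plentiful, and activate genes that include Txnip and Arrdc4 through paired E-box sites called carbohydrate response elements (ChoREs). MondoA is the form known from lymphocytes and muscle, and ChREBP from liver and fat.

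The promoters of the 4 members with the clearest differences in expression are shown because MondoA and ChREBP, FOXO factors, NF-Y and the glucocorticoid receptor act through short sites of this kind. RefSeq windows (build GRCm38.p6) were matched for all 8 members, and each line gives the 250 bases before the annotated start, 5′ to 3′ on the strand of the gene. Capitals mark every match, on either strand, to an E-box (CACGTG), to a ChoRE-like pair (CACGNG and CNCGNG with 5 bases between them), to a CCAAT box (CCAAT) or to a FOXO element (GTAAACA). The windows are chr3:96557707-96557956 (plus strand) for Txnip, chr7:68749239-68749488 (minus strand) for Arrdc4, chr13:80883134-80883383 (plus strand) for the first of 3 starts of Arrdc3, and chr8:70839721-70839970 (minus strand) for Arrdc2.
Txnip: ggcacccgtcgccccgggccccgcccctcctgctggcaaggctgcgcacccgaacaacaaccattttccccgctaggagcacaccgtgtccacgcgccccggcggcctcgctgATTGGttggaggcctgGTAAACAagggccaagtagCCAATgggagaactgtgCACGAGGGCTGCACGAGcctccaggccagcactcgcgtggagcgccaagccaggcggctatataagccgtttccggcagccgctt
Arrdc4: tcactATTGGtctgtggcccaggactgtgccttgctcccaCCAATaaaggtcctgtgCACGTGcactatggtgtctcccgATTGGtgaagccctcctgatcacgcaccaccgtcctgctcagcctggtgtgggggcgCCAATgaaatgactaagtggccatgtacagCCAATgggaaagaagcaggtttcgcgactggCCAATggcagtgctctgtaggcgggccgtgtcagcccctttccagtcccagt
Arrdc3: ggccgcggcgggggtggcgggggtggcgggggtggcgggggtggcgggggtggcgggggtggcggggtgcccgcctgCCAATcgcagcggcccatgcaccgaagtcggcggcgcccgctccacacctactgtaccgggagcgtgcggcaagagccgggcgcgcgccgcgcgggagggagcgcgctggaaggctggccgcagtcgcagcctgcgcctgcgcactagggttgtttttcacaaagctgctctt
Arrdc2: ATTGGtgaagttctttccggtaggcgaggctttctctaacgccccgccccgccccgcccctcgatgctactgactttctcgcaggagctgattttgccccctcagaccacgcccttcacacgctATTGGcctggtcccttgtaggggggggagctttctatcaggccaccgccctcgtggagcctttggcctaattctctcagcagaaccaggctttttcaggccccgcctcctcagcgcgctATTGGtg

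The Txnip window held 1 ChoRE-like pair, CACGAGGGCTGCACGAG, from base -85 to base -69 relative to the start. Of 32851 RefSeq windows of 300 bases in the whole genome, 0.365% held such a pair, and none of the windows of the other 7 members did. Upstream of it lay a FOXO element from base -121 to base -115, found in 3.65% of all windows and in no other member, and 2 CCAAT boxes, the site bound by NF-Y. The Arrdc4 window had no ChoRE-like pair but 1 complete E-box from base -193 to base -188, which 7.15% of all windows held. It also had 6 CCAAT boxes. At least 1 CCAAT box stood in 37.4% of all windows, at least 2 in 11.7%, at least 3 in 3.37% and at least 6 in 0.0791%.

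Arrdc2 had 3 CCAAT boxes and Arrdc3 1 at its first start, with no match to the E-box, the ChoRE-like pair or the FOXO element in either. Complete E-boxes were also present in Mlx, from base -40 to base -35, and at the second of 2 starts of Mlxipl. Mlx and Mlxip held 2 CCAAT boxes each, as many as Txnip, and the second start of Mlxipl held 1. Arrdc1 matched none of these motifs. The glucocorticoid element (AGAACA and TGTTCT with 3 bases between them) was in no member's window and in 3 of all windows. The motif letters were chosen after the promoters had been seen, and the cut-offs on the number of CCAAT boxes are the counts found in the members. A match describes the letters and does not show binding.

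**Figure D1:**
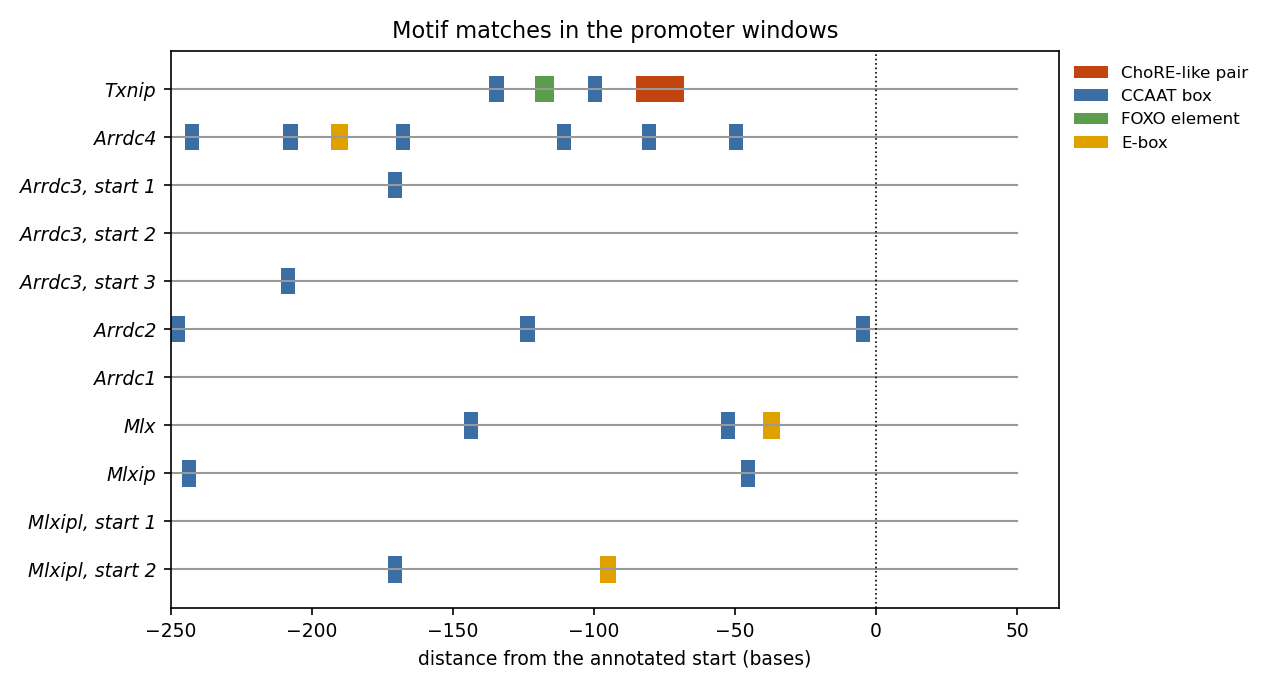
Motif matches on either strand in the promoter windows of the 8 genes, with 1 row for each RefSeq start and the distance from that start in bases on the x axis. The ChoRE-like pair appears in Txnip only, and Arrdc4 carries 6 CCAAT boxes and 1 E-box.

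Library totals ranged from 27617750 to 37841233 counts. FK866 replicate 2 stood apart, with 22461 gene IDs at 10 or more counts against 17152 to 18667 in the other libraries, so each call of a gene named below that was lost without it is given beside that gene. Levels are given as CPM, counts scaled to the library total after TMM adjustment. The ILC2 markers were abundant. Their 11 genes summed to 5117 and 4285 CPM in FK866 libraries and 5096 and 4966 CPM in controls. Gata3 stood at 698.6 to 841.8 CPM in FK866 libraries and 947.0 to 1082 CPM in controls. Single markers differed: 1 of the 11 was called higher and 2 lower, and these 3 are named after their values were seen. Rora, which encodes a transcription factor that ILC2s need, had 1185 and 1128 CPM in FK866 libraries, against 337.3 and 374.6 CPM in controls (log2 1.70 ± 0.12, SE, edgeR adjusted p = 0.000457). The type 2 cytokine gene Il13 had 65.0 and 34.6 CPM in FK866 libraries, against 161.3 and 117.6 CPM in controls (log2 -1.49 ± 0.28, SE, edgeR adjusted p = 0.0118). The costimulatory receptor gene Icos had 551.0 and 645.9 CPM in FK866 libraries, against 940.1 and 1205 CPM in controls (log2 -0.84 ± 0.15, SE, edgeR adjusted p = 0.0101). Of the lists of other cell types, 6 T cell genes summed to 17.7 and 18.2 CPM in FK866 libraries and 17.5 and 18.2 CPM in controls, 4 B cell genes to at most 2.38 CPM, and 5 mast cell genes to at most 1.23 CPM. The 6 myeloid genes summed to 14.3 and 12.6 CPM in FK866 libraries and 4.79 and 5.80 CPM in controls, and 1 of them, Cd68, was called higher. The 6 epithelial genes, nearly all Epcam (Krt8 had 0 counts), summed to 27.4 to 40.1 CPM in FK866 libraries and 42.4 to 55.4 CPM in controls, and the 6 stromal and endothelial genes, nearly all Pecam1, to 192.3 to 226.9 CPM in FK866 libraries and 144.7 to 184.9 CPM in controls. The part of these differences in the results was not tested.

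The α-arrestins moved apart. Txnip, Arrdc4 and Arrdc3 were higher in FK866 libraries and Arrdc2 was lower, while Arrdc1, Mlx and Mlxip stood at 0.75, 0.781 and 0.955 times the control level, and Mlxipl was barely detected. In a quasi-likelihood fit across all genes, with a call at a Benjamini-Hochberg adjusted p under 0.05, 3 of the 8 members were called higher, 1 lower and 4 were not called. Over all 19194 genes tested 13.2% were called, 5.31% higher and 7.89% lower. That share is not a like-for-like background for the members, most of which were abundant. When the fit was repeated on the 9800 genes with a mean log2 CPM above 2, 1758 were called higher and 1604 lower. Of the members, 3 were then called higher, 1 lower and 3 were not called. The libraries of the groups did not overlap for 6 of the 8 members, 3 above and 3 below the controls, and 57.7% of all genes tested likewise did not overlap. Because the members were picked with this comparison known, these counts and the fold changes below describe the genes and are not tests. In bulk RNA, a change in the number of cells that express a gene and a change in RNA per cell cannot be told apart.

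Txnip (ENSMUSG00000038393, GRCm38 chromosome 3, 96557957 to 96561883, plus strand) had 375.7 and 401.3 CPM in FK866 libraries, against 62.9 and 67.2 CPM in controls. Both FK866 libraries lay far above both controls, and the closest pair of libraries still differed 5.59-fold. The fitted log2 fold change was 2.58 ± 0.13 (SE, n = 2 in each group), a 5.98-fold rise, which ranked 16th among the 8722 genes whose mean log2 CPM was 3 or more. Of its exon bases, 19.4% overlap the antisense gene Gm15441. The libraries do not mark strand, so reads in the shared bases cannot be assigned to either gene. Txnip had 10133 and 13648 counts in FK866 libraries and 2284 and 2190 in controls. Gm15441 had 13 and 16 counts in FK866 libraries and 4 and 6 in controls.

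Arrdc4 (ENSMUSG00000042659, chromosome 7, 68736995 to 68749241, minus strand) had 91.9 and 96.2 CPM in FK866 libraries, against 8.09 and 8.28 CPM in controls. The 2 libraries of each group nearly coincided, and the closest FK866 and control libraries differed 11.1-fold. Its log2 fold change of 3.52 ± 0.16 (SE, n = 2 in each group) was the 2nd largest rise among the 8722 genes. In raw reads this was 2479 and 3270 counts in FK866 libraries and 294 and 270 in controls.

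Arrdc3 (ENSMUSG00000074794, chromosome 13, 80883384 to 80896042, plus strand) encodes an adaptor in the trafficking of β-adrenergic receptors and of integrin β4. It had 84.6 and 71.7 CPM in FK866 libraries, against 29.3 and 18.3 CPM in controls. The groups did not overlap, but the controls differed from each other more than for any other well-measured member, by 0.68 on the log2 scale. The log2 fold change was 1.72 ± 0.23 (SE, n = 2 in each group), and the closest pair of libraries differed 2.45-fold.

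Arrdc2 (ENSMUSG00000002910, chromosome 8, 70835129 to 70839720, minus strand), a less studied member of the family, went the other way. It had 8.31 and 8.62 CPM in FK866 libraries, against 16.6 and 16.5 CPM in controls. Replicates were nearly equal in both groups, and the FK866 level was 0.511 times that of the controls (log2 fold change -0.97 ± 0.22, SE, n = 2 in each group). Its depth was the lowest of the called members, with 224 and 293 counts in FK866 libraries and 602 and 539 in controls. Without FK866 replicate 2 it kept its fold change (-0.97) but was no longer called.

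Arrdc1 (ENSMUSG00000026972, chromosome 2, 24925352 to 24935252, minus strand) encodes the α-arrestin that recruits TSG101 to release small vesicles from the plasma membrane. It had 68.7 and 79.4 CPM in FK866 libraries, against 100.2 and 97.3 CPM in controls. Both FK866 libraries were below both controls, yet the difference of -0.42 ± 0.14 on the log2 scale (SE, n = 2 in each group) was not called, and it shrank to -0.16 (-0.29 relative to the median of all genes) when a trend with transcript length and GC content was removed. It was called lower without control replicate 1. Another gene of this name pattern, Arrdc5, which is not among the 8, reached at most 0.265 CPM and was not tested.

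**Figure D2:**
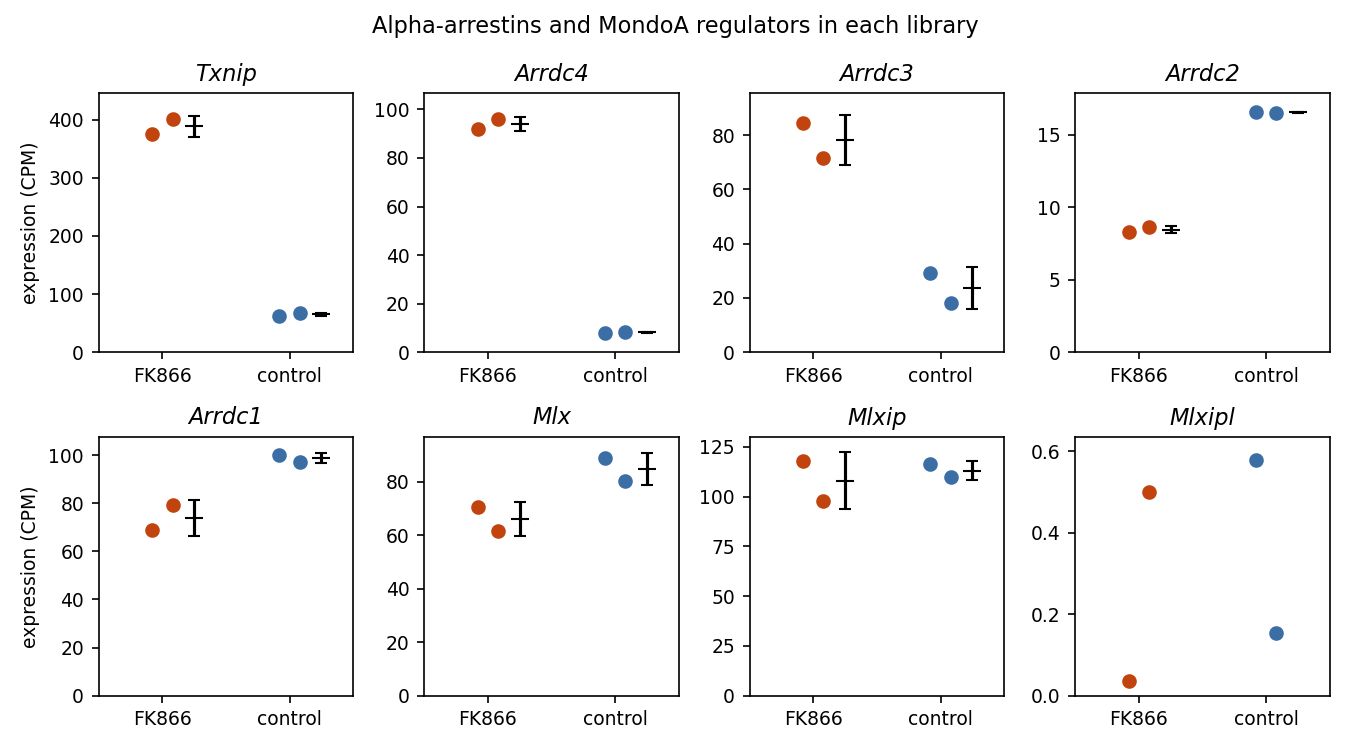
Expression of the 8 genes in CPM (y axes start at 0), with 1 point for each library, FK866 libraries on the left and controls on the right, and the mean ± SD over 2 libraries beside them (not drawn for Mlxipl). Txnip, Arrdc4 and Arrdc3 lie above the controls, Arrdc2, Arrdc1 and Mlx below them, and Mlxip and Mlxipl overlap.

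The transcription factor genes differed less. Mlx (ENSMUSG00000017801, chromosome 11, 101087277 to 101092207, plus strand), the partner that both sensors need, had 70.7 and 61.8 CPM in FK866 libraries, against 89.0 and 80.6 CPM in controls. The groups did not overlap, and the log2 fold change of -0.36 ± 0.15 (SE, n = 2 in each group) was not called. It was -0.07 with the length and GC trend removed (-0.20 relative to the median of all genes) and between -0.55 and -0.24 as 1 library was left out. Of the Mlx exon bases, 19.3% overlap Psmc3ip on the other strand, a recombination gene with 277 and 353 counts in FK866 libraries and 623 and 573 in controls, and reads in the shared bases cannot be assigned to either gene.

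Mlxip (ENSMUSG00000038342, chromosome 5, 123394798 to 123457932, plus strand), which encodes MondoA, had 118.2 and 97.95 CPM in FK866 libraries, against 116.5 and 109.8 CPM in controls. The highest and the lowest value were both FK866 libraries. The log2 fold change was -0.07 ± 0.14 (SE, n = 2 in each group), and it ran from -0.30 without FK866 replicate 1 to 0.09 without FK866 replicate 2. Mlxipl (ENSMUSG00000005373, chromosome 5, 135089890 to 135138382, plus strand), which encodes ChREBP, had 1 and 17 counts in FK866 libraries and 21 and 5 in controls. It stood at or below 0.578 CPM in every library, too few reads for a comparison.

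Levels can be set side by side between genes only per length, as TPM (counts divided by exon length and scaled to a common sum in each library). In FK866 libraries the order was Txnip (306.3 and 360.8 TPM), Mlx (90.1 and 86.7), Arrdc1 (69.7 and 88.8), Arrdc4 (57.9 and 66.8), Mlxip (36.1 and 33.0), Arrdc3 (34.4 and 32.1), Arrdc2 (6.54 and 7.48) and Mlxipl (0.0171 and 0.253). In controls it was Mlx (112.7 and 102.0 TPM), Arrdc1 (101.1 and 98.2), Txnip (51.0 and 54.5), Mlxip (35.4 and 33.4), Arrdc2 (13.0 and 13.0), Arrdc3 (11.8 and 7.38), Arrdc4 (5.07 and 5.19) and Mlxipl (0.264 and 0.0701). In the FK866 order, Mlx and Arrdc1 overlapped, and so did Mlxip and Arrdc3, while the other neighbours did not. In the control order no neighbours overlapped.

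The makeup of the α-arrestin pool differed between the groups. The TPM of the 5 genes summed to 474.8 and 555.9 in FK866 libraries, against 181.9 and 178.2 in controls. Txnip made up 64.5% and 64.9% of that sum in FK866 libraries, against 28.0% and 30.6% in controls. Arrdc4 made up 12.2% and 12.02% in FK866 libraries, against 2.79% and 2.92% in controls. Arrdc1, the main α-arrestin of the controls, made up 14.7% and 16.0% in FK866 libraries, against 55.6% and 55.1% in controls. The share of Arrdc3 overlapped between the groups, at 7.24% and 5.78% in FK866 libraries and 6.50% and 4.14% in controls. Among the factors, Mlx took 71.4% and 72.3% of the summed TPM in FK866 libraries and 75.9% and 75.3% in controls, and Mlxipl at most 0.211% in any library.

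**Figure D3:**
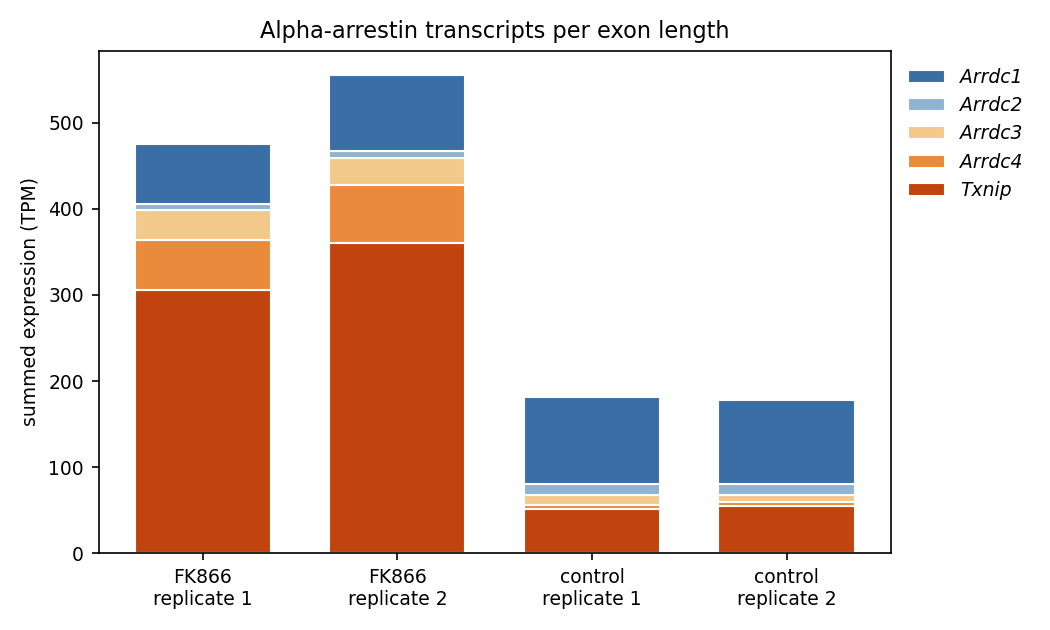
TPM of the 5 α-arrestins stacked in each library, FK866 libraries on the left. The sum was 474.8 and 555.9 TPM in FK866 libraries and 181.9 and 178.2 TPM in controls, with Txnip the largest part in FK866 libraries and Arrdc1 the largest part in controls.

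The genes whose pattern over the 4 libraries was most like that of each member were found by the Euclidean distance between log2 CPM values centred on the mean of each gene, among 8354 named protein-coding genes. Nearest to Txnip were Bcl2l11 (distance 0.105), which encodes the pro-apoptotic protein BIM, Zfp52 (0.118) and Tagap (0.301). Bcl2l11 had 168.7 and 180.9 CPM in FK866 libraries, against 26.0 and 28.6 CPM in controls. These 3 genes had log2 fold changes of 2.68, 2.59 and 2.64, beside 2.58 for Txnip. Arrdc4 had no such close neighbour: Zfp948, Tent5a and Mc5r came first at distances of 0.600, 0.629 and 0.658. With 4 values per gene, the distance for members with large differences largely restates the fold change between the groups. Arrdc4 had the 2nd largest rise among 8722 genes, so few genes could lie near it. Shared regulation was not tested. Arrdc3 was nearest to Bmp2 (0.162), Mapkbp1 (0.166) and Hlf (0.192), and Arrdc2 to Lamtor4 (0.041), Xrcc6 (0.043) and Tspan32 (0.052). For genes with small differences the measure is crowded: Arrdc1 was nearest to Aste1, Unc93b1 and Ino80b (0.028 to 0.043), Mlx to Ubap2l, Abcb10 and Tm2d2 (0.016 to 0.028), and Mlxip to Arl6ip5, Hectd4 and Clcn4 (0.017 to 0.024).

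**Figure D4:**
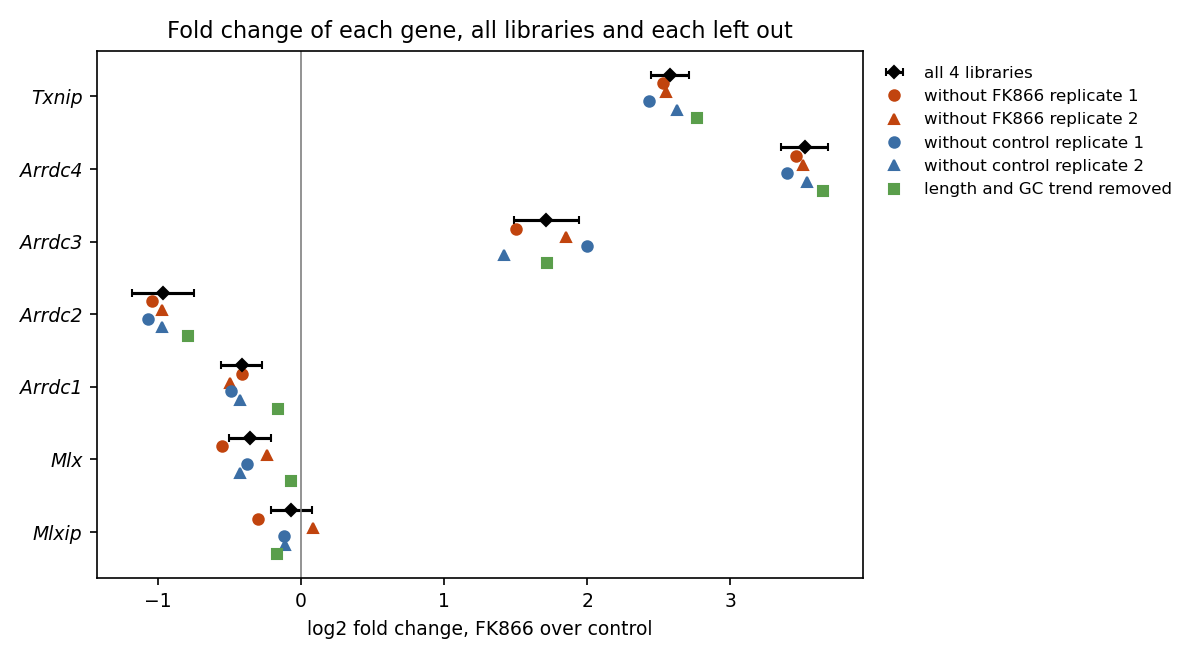
Log2 fold change (x axis, FK866 over control) of 7 of the genes with all 4 libraries (diamond, bar ± SE), with 1 library left out (circles and triangles) and after removal of the length and GC trend (square). Txnip, Arrdc4 and Arrdc3 stay above 0 and Arrdc2, Arrdc1 and Mlx below 0 at every point, and Mlxip lies on both sides of 0.

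The proteins that α-arrestins work with included several higher genes. This list and those that follow were chosen with earlier results of these data known. Their shares of called genes are therefore a description and not independent support. Of 16 tested genes for NEDD4-family ubiquitin ligases, their adaptors and the ESCRT proteins they meet on endosomes, 6 were called higher and 1 lower (43.8%, against 13.2% of all genes tested, of which 5.31% higher and 7.89% lower), with a median log2 fold change of 0.45 against 0.03 over all genes tested. The background share changed when the fit was repeated on the more abundant genes only. When only the 9800 genes with a mean log2 CPM above 2 were tested (the stricter filter), 1758 were called higher and 1604 lower. In this list 7 were then called higher and 0 lower. The 13.2% is thus not a like-for-like background for lists of mostly abundant genes, here or below. Stam, an endosomal sorting protein, had 71.5 and 71.3 CPM in FK866 libraries, against 30.4 and 29.1 CPM in controls (log2 1.27 ± 0.15, SE, edgeR adjusted p = 0.00213). The ligase genes Smurf1 (0.89, adjusted p = 0.0169), Wwp2 (0.68, adjusted p = 0.0181) and Smurf2 (0.95, adjusted p = 0.0232) followed in the edgeR test. The remaining calls were Stam2 (0.61) and Ndfip2 (0.49), both higher, and Nedd4, lower at -0.45; these 3 lie outside the naming rule and were chosen after their values were seen. When either FK866 library was left out, 3 genes were called higher and 0 lower. The calls of Smurf1, Stam2 and Ndfip2 were lost without FK866 replicate 1, and those of Wwp2, Smurf2 and Ndfip2 without FK866 replicate 2. Of 11 alternatives, the Nedd4 call was lost under 6, that of Ndfip2 under 5 and that of Stam2 under 2, while the Stam call held under all. Itch, a ligase that ubiquitinates TXNIP, had a log2 fold change of 0.11, and Tsg101, the partner of ARRDC1, of 0.04; neither was called, and both were named after their values were seen.

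Of 6 tested relatives that share the arrestin fold, 0 were called by edgeR or by DESeq2 (1 was lower at an unadjusted edgeR p under 0.05), with a median log2 fold change of -0.19. Those with the highest mean CPM were the retromer subunit gene Vps26b (0.17 ± 0.14, SE) and the retriever subunit gene Vps26c (-0.14 ± 0.14, SE; listed in the count of relatives under its older symbol Dscr3). Without control replicate 1, 2 of the relatives were called lower.

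The thioredoxin list combined the thioredoxin system, to which TXNIP binds, with other genes for TXNIP-binding proteins, Nlrp3 and Ddit4 among them. It held 0 higher and 2 lower genes among 12 tested (16.7% called, against 13.2% of all genes tested), with a median of -0.30 (0 higher and 6 lower at an unadjusted edgeR p under 0.05, and 0 higher by DESeq2). Txn1, the cytosolic thioredoxin that TXNIP binds (named after its values were seen), had 425.9 and 396.6 CPM in FK866 libraries, against 434.7 and 505.7 CPM in controls, a log2 fold change of -0.19 that was not called. The thioredoxin reductase gene Txnrd3 had 16.5 and 11.3 CPM in FK866 libraries, against 37.4 and 29.9 CPM in controls (log2 -1.28 ± 0.24, SE, edgeR adjusted p = 0.011). The peroxiredoxin gene Prdx2 was at -0.45 (edgeR adjusted p = 0.0488), a call lost under 7 of 11 alternatives, without either FK866 library among them, with adjusted p-values from 0.00153 to 0.258, and 11.5% of its exon bases overlap genes on the other strand. Without control replicate 1, 7 genes of this list were called lower and 1 higher.

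Genes of glucose entry and of glucose 6-phosphate, the sugar that MondoA senses, mostly did not pass. Of 13 tested, 1 was called lower and 0 higher (7.69%, against 13.2% of all genes tested), with a median of 0.10 (0 higher and 3 lower at an unadjusted edgeR p under 0.05, and 0 higher by DESeq2). The exception was G6pdx, the first enzyme of the pentose phosphate pathway, with 218.6 and 214.7 CPM in FK866 libraries, against 324.0 and 325.3 CPM in controls (log2 -0.58 ± 0.12, SE, edgeR adjusted p = 0.0169). Its call was lost without FK866 replicate 2 and with no filter, and 13.6% of its exon bases overlap Ikbkg on the other strand. The widely expressed glucose transporter gene Slc2a1 had 124.1 and 99.4 CPM in FK866 libraries, against 116.3 and 83.5 CPM in controls, and the hexokinase gene Hk2 60.4 and 60.0 CPM in FK866 libraries, against 65.2 and 64.5 CPM in controls. Neither was called, and both were named after their values were seen. Without control replicate 2, 3 genes of this list were called lower and 1 higher.

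Of 14 tested other targets of MondoA and ChREBP, known mainly from liver, 1 was called higher, 2 were called lower and 11 were not called (21.4% called, against 13.2% of all genes tested), with a median of 0.02 (2 higher by DESeq2). The transcriptional repressor gene Bhlhe40 had 345.7 and 214.3 CPM in FK866 libraries, against 162.2 and 130.9 CPM in controls (log2 0.93 ± 0.22, SE, edgeR adjusted p = 0.0267), a call lost without FK866 replicate 1 (log2 0.45). The lipid synthesis genes Fasn (log2 -1.21 ± 0.16, SE, edgeR adjusted p = 0.0032) and Elovl6 (-0.98 ± 0.17, SE, adjusted p = 0.00918) were lower. Of the 19 genes listed, 5 were too low to test, among them the liver genes Pklr and G6pc.

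In the MAX and MLX network, the set of factors that share E-box sites with MondoA, 2 of 9 tested genes were called higher and 0 lower (22.2%, against 13.2% of all genes tested), with a median of -0.28 (2 lower at an unadjusted edgeR p under 0.05, 0 by DESeq2). Both encode repressors of the MXD group. Mxd1 had 134.1 and 144.2 CPM in FK866 libraries, against 38.1 and 26.8 CPM in controls (log2 2.10 ± 0.19, SE, edgeR adjusted p = 0.000973), and Mxi1 had 27.9 and 28.1 CPM in FK866 libraries, against 7.38 and 11.2 CPM in controls (log2 1.59 ± 0.24, SE, edgeR adjusted p = 0.00587). Mxd4, another MXD gene, was at -0.03 and Max at -0.39. A further MXD gene, Mxd3, went the other way at -2.44. It had few reads, with 4 and 7 counts in FK866 libraries and 47 and 22 in controls. None of these genes was called, and all were named after their values were seen. The calls of Mxd1 and Mxi1 held under all 11 alternatives.

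Of 14 tested genes for other regulators of Txnip, 3 were called higher and 3 lower (42.9%, against 13.2% of all genes tested), with a median of 0.25. With the stricter filter 4 were called higher and 3 lower, beside 1758 higher and 1604 lower of all 9800 genes then tested. The glucocorticoid receptor gene Nr3c1 had 348.7 and 349.8 CPM in FK866 libraries, against 228.3 and 203.0 CPM in controls (log2 0.70 ± 0.13, SE, edgeR adjusted p = 0.0106). Akt1, a kinase that restrains FOXO factors and phosphorylates TXNIP, had 58.1 and 39.0 CPM in FK866 libraries, against 148.4 and 86.5 CPM in controls (log2 -1.28 ± 0.27, SE, edgeR adjusted p = 0.0185). The NF-Y subunit gene Nfyb was at -1.05 (edgeR adjusted p = 0.0147; not called without FK866 replicate 2). Foxo1 was at 0.69 (edgeR adjusted p = 0.0222; 0.45 and not called without FK866 replicate 1). The remaining calls, Nfya at 0.84 and the histone methyltransferase gene Ezh2 at -0.72, lie outside the naming rule and were chosen after their values were seen. The Nfya call was lost without FK866 replicate 1, without control replicate 1 and with no filter, and the Ezh2 call without FK866 replicate 2.

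**Figure D5:**
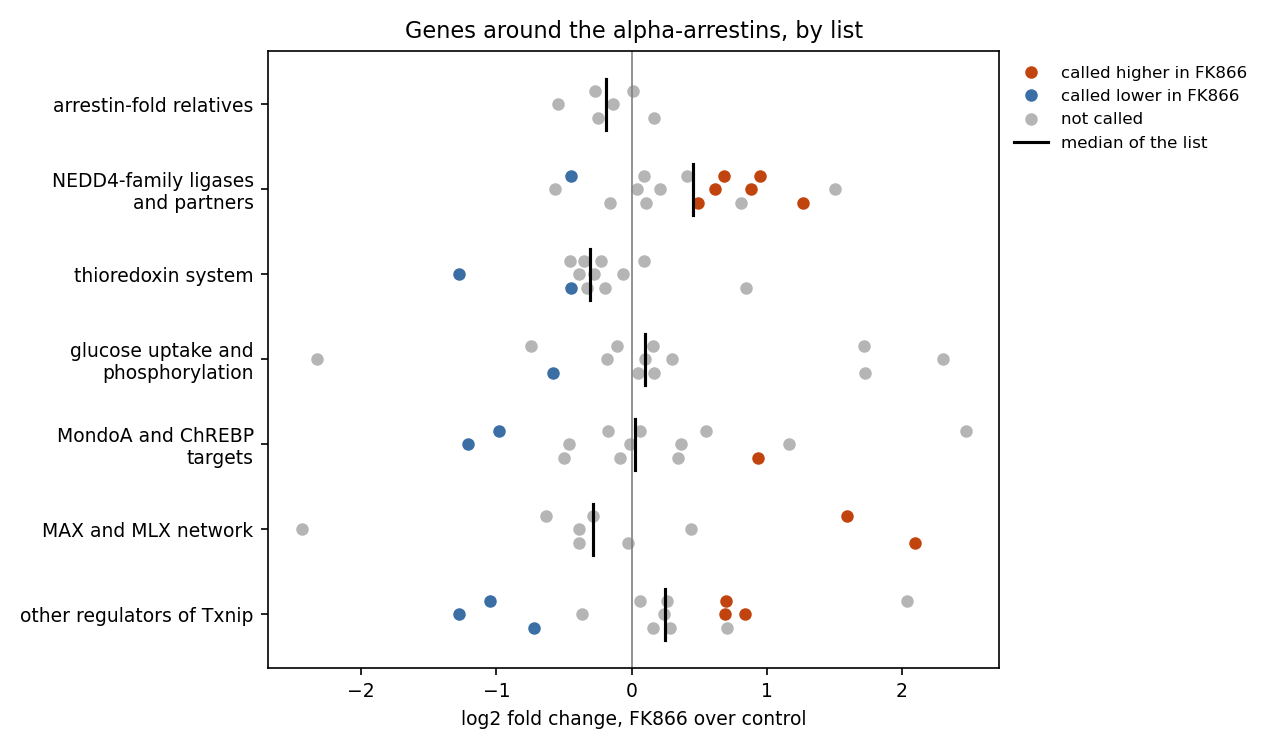
Log2 fold change (x axis, FK866 over control) of each tested gene in 7 lists around the α-arrestins, with genes called higher in FK866 in red, called lower in blue and not called in grey, and the median of each list as a black line. The medians run from -0.30 in the thioredoxin list (drawn as thioredoxin system) to 0.45 in the NEDD4-family list.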

How the data were processed

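RNA was measured in 4 libraries of cultured colon ILC2s. Per the labels' protocols, RNA was taken with TRIzol, and libraries were made with SMART-Seq HT and Nextera XT, which do not mark strand. The deposited table holds raw counts per Ensembl gene ID, whole numbers with unequal library sums. The submitters' processing notes name cutadapt 1.9, HISAT2 2.2.1 and build mm10; how reads were counted over genes, and what was done with multiply mapped ones, is not given in the sources used here, so close paralogs and pseudogenes could share reads. Gene names, positions, overlaps and exon-union lengths came from GENCODE M21 (GRCm38), promoters from RefSeq.

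Counts were tested with edgeR 4.0.16 in R 4.3.3 (glmQLFit, glmQLFTest, two-sided) with TMM scaling, filterByExpr (minimum count 10, minimum total 15) and treatment as the only term, and p-values were adjusted by Benjamini-Hochberg over 19194 genes. CPM used TMM-scaled totals; each SE was derived from the log2 fold change and its F statistic. The labels do not tie replicates to separate animals or cultures, and the p-values therefore reflect only how far the 4 libraries scatter, possibly for technical reasons. The libraries of a group differed by more than sampling noise (chi-square per degree of freedom 15.6 for FK866 and 28.8 for control). The members and lists were chosen with earlier results of these data known. All 8 members were named, with up to 4 called genes of smallest adjusted p per list (the 2 of highest mean log2 CPM where none was called), the 3 nearest patterns of each member above a mean log2 CPM of 3, and up to 3 abundant markers per list. The procedure was tested on simulated counts. Alternatives left out each library, changed the scaling or the filter, used DESeq2 1.42.0, added a replicate block, or removed a length and GC trend (loess, span 0.5).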

Additional observations from a re-analysis of the deposited data

How the results depend on the processing

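Txnip, Arrdc4 and Arrdc3 kept their direction under all 11 alternatives, as did Arrdc2, Arrdc1 and Mlx; Mlxip and Mlxipl did not. As 1 library was left out, the log2 fold change ran from 2.43 to 2.63 for Txnip, 3.41 to 3.54 for Arrdc4, 1.42 to 2.00 for Arrdc3, -0.50 to -0.41 for Arrdc1, -1.07 to -0.97 for Arrdc2, -0.55 to -0.24 for Mlx, -0.30 to 0.085 for Mlxip and -3.17 to 0.72 for Mlxipl, which had too few reads. Over all genes, 661 to 1457 were then called higher and 828 to 2462 lower. The lists then gave 0 to 2 lower arrestin-fold relatives, 3 to 6 higher and 0 to 1 lower NEDD4-family genes, 0 to 1 higher and 1 to 7 lower thioredoxin genes, 0 to 1 higher and 0 to 3 lower glucose genes, 0 to 3 higher MondoA and ChREBP targets, 0 to 2 lower MAX network genes, and 1 to 3 higher and 1 to 4 lower regulators of Txnip.

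Removing the length and GC trend gave 2.77 for Txnip, 3.65 for Arrdc4, -0.79 for Arrdc2, -0.16 for Arrdc1 and -0.067 for Mlx, with the median of all genes at 0.134 in place of 0.025; 1575 genes were called higher, and Vps26c turned to 0.005, not called on either side. The stricter filter gave 2.68 for Txnip, 3.62 for Arrdc4 and -0.87 for Arrdc2, with 1758 genes called higher. Library totals gave 3.58 for Arrdc4 and -0.91 for Arrdc2, and no filter -1.02 for Arrdc2. Upper quartile scaling, library totals, no filter and the stricter filter each called 0 NEDD4-family genes lower, and these and the trend removal called 1 thioredoxin gene lower. DESeq2, the replicate block, the stricter filter, the trend removal and both other scalings called 2 MondoA and ChREBP targets higher. Why these values moved was not tested.

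The replicate numbers are not stated to mark a shared animal or day. FK866 and control libraries of the same number deviated together (r = 0.49 across 9801 genes, which are not independent). With the replicate block, 2197 genes were called higher and 3059 lower, with 1 arrestin-fold relative, 2 NEDD4-family, 6 thioredoxin, 2 glucose and 1 MAX network genes lower, and Arrdc1 and Mlx were called lower at unaltered fold changes (-0.42 and -0.36). Depth limits Mlxipl and Arrdc2 most.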
